A study of Mus musculus with 6 samples.

Results

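The genes of cholesterol synthesis and of the sterol regulatory element binding proteins (SREBPs) were examined in cultured mouse aortic smooth muscle cells with and without SMYD2, a lysine methyltransferase. The 29 members, of 18112 genes in the deposited table, were a named list of enzymes of sterol and fatty acid synthesis, the SREBPs with the proteins that hold or release them, and 1 sterol carrier, and the list was drawn up by pathway role, with earlier results of these data known. Primary cells were grown from the aortic media of C57BL/6 mice, which the study's methods give as 8 to 10 weeks old. The group labelled Flox (3 libraries, replicates 1 to 3) came from Smyd2 fl/fl littermates, in which loxP sites flank exon 2 of Smyd2 and no Cre is carried. The group labelled SMYD2 KO (3 libraries, replicates 1 to 3) came from Smyd2 SMC-/- mice, in which the same floxed allele was recombined by Cre under the Tagln (SM22alpha) promoter, which is active in smooth muscle and also in some other cell types. The labels give passage 6 in DMEM with 10% serum, whereas the study's methods give passage 4 and serum starvation overnight, so which sterol supply the sequenced cells had is uncertain. Levels are FPKM, fragments scaled to transcript length and to the total mapped in the library, so they can be compared between genes, while library sums of 388507 to 451539 FPKM mean that comparisons between libraries depend on scaling to the extent given below. The stepping of low values put the depth at about 16050000 to 18550000 fragments a library.

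Cholesterol is built from acetyl-CoA through mevalonate, isoprenoid diphosphates, squalene and lanosterol, by enzymes that cells switch on together when sterols in the endoplasmic reticulum run low. SREBPs are membrane-bound transcription factors that the escort protein SCAP carries to the Golgi for cleavage when sterols are scarce, while INSIG proteins hold SCAP and SREBP back when sterols are plentiful. SREBP-2 acts mainly on sterol genes and SREBP-1 mainly on fatty acid genes, and cultured smooth muscle cells lower this synthesis when serum lipoproteins are supplied.

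Smyd2 was read first as a check of the labels. Its FPKM was 7.87, 3.10 and 3.0 in Flox replicates 1, 2 and 3, and 1.67, 0.40 and 0.80 in SMYD2 KO replicates 1, 2 and 3. Each SMYD2 KO library was below every Flox library, and SMYD2 KO replicate 1 kept the highest Smyd2 level of its group. The Flox mean of 4.66 ± 2.78 FPKM (SD, n = 3) compared with 0.957 ± 0.649 (SD, n = 3) in SMYD2 KO gave p = 0.1 in a two-sided exact permutation test, the smallest p that 3 against 3 allows. In limma the log2 fold change, on the log2(FPKM + 1) scale used throughout, was -1.48 with an adjusted p of 0.105, and of 0.0189 when blocked by replicate number.

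The replicate 1 libraries stood apart from the others in both genotypes. The first principal component of all tested genes, 50.2% of the variance, placed Flox replicate 1 at -58.6 and SMYD2 KO replicate 1 at -25.4, against 3.11 and 2.75 for the other Flox libraries and 39.1 for both other SMYD2 KO libraries. The second, 33.1% of the variance, separated the genotypes within each replicate number, with SMYD2 KO replicate 1 at the far end at -48.3. The members' results below are therefore given with and without SMYD2 KO replicate 1, or for the replicates separately.

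Smooth muscle markers were read as a check of the labelled cell type, and 3 of 8 were nearly absent while Acta2, Tagln, Smtn and Cnn1 were expressed. Acta2, smooth muscle actin, was the most abundant of the 8 markers at 761, 682 and 683 FPKM in Flox and 201, 268 and 262 in SMYD2 KO, and fell in SMYD2 KO (log2 fold change -1.55, adjusted p 0.00803). Tagln, the gene whose promoter drives the Cre, was at 80.5, 79.1 and 70.3 FPKM in Flox and 12.5, 87.3 and 57.1 in SMYD2 KO, so that SMYD2 KO replicate 1 was the low library. Cnn1 had 21.0, 4.86 and 5.11 FPKM in Flox and 2.70, 5.07 and 4.32 in SMYD2 KO. Myh11, the smooth muscle myosin that defines the differentiated cell, did not exceed 0.22 FPKM in any library, and 3 of the 8 markers, Myh11 with Myocd and Des, stayed under 0.5 FPKM everywhere. In the interaction described below, 3 of the 5 tested markers were called lower and 0 higher, beside 2.94% and 5.68% of all tested genes, Tagln (-2.52, adjusted p 0.00920), Cnn1 (-2.50, adjusted p 0.00125) and Lmod1 (-1.78, adjusted p 0.00539), the last of them named once its value was known. Lmod1 had 3.28, 2.71 and 2.83 FPKM in Flox and 1.22, 5.44 and 6.02 in SMYD2 KO, so that it rose in replicates 2 and 3 alone (0.835, adjusted p 0.00335) while SMYD2 KO replicate 1 was the lowest library. In bulk RNA, fewer cells of a type and less RNA per cell cannot be told apart, here and in every result below.

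Across all 6 libraries the SREBP genes and the synthesis enzymes showed no shared change with genotype, and the SMYD2 KO libraries lay on both sides of the Flox libraries. SMYD2 KO replicate 1 had the enzyme genes among the members at 1.35 to 6.88 times Flox replicate 1 (Tm7sf2, listed at 0 in 1 library, left aside), while SMYD2 KO replicates 2 and 3 had most of them below it. All 29 members passed the filter of a mean of at least 0.5 FPKM, as did 12565 of 18112 genes. limma called 0 of 29 members lower and 0 higher in SMYD2 KO at an adjusted p under 0.05, where it called 1.21% of all tested genes lower and 1.23% higher, and 0 members had an unadjusted p under 0.05. In the fit blocked by replicate number the counts were again 0 lower and 0 higher, also at an unadjusted p under 0.05, beside 5.72% and 4.72% of all tested genes. No second tool was run, and limma without its trend and robust options gave 0 as well. The members' median log2 fold change was 0.23, with 10 of 29 below 0, beside -0.02 over all tested genes.

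**Figure D1:**
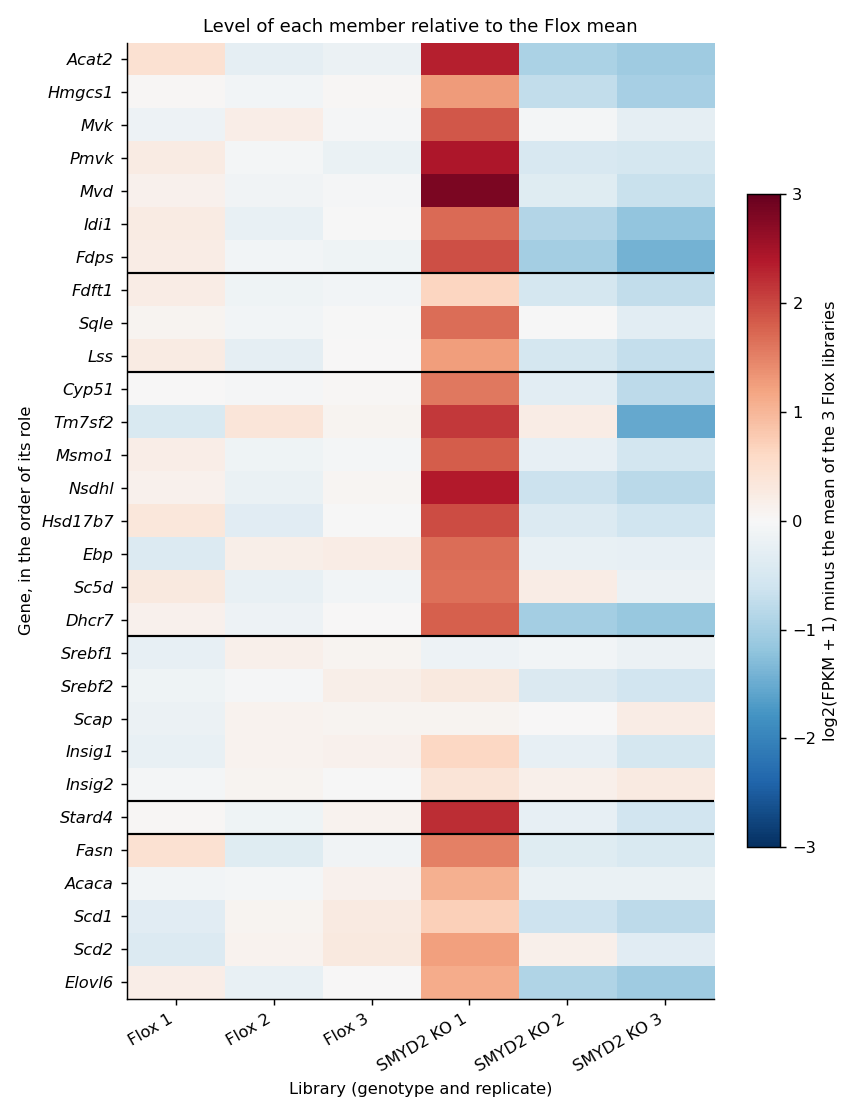
Level of each of the 29 members in each library, as log2(FPKM + 1) minus the mean of the 3 Flox libraries, with genes in the order of their roles and lines between roles. SMYD2 KO replicate 1 is the highest library for 27 of 29 members, and SMYD2 KO replicates 2 and 3 both lie below every Flox library for 19.

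The levels themselves showed the split. SMYD2 KO replicate 1 was the highest of the 6 libraries for 27 of 29 members, all but Srebf1 and Scap, against 28.9% of all tested genes. SMYD2 KO replicates 2 and 3 were both below every Flox library for 19 of 29 members, against 30.6% of tested genes. The 2 conditions held together, SMYD2 KO replicate 1 above and its companions below every Flox library, for 19 of 29 members and for 5.36% of tested genes. Among the Flox libraries the highest was under 2 times the lowest for 28 of 29 members and for 79.8% of tested genes.

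Within the replicate 1 pair, SMYD2 KO was at least 2-fold above Flox for 22 of 29 members on the log2(FPKM + 1) scale, against 6.09% of tested genes, and all 29 differences were above 0. The members' median difference was 1.57 in the replicate 1 pair, -0.27 in the replicate 2 pair and -0.65 in the replicate 3 pair, beside 0.05, -0.08 and -0.04 over all tested genes. The difference in the replicate 1 pair minus that in replicates 2 and 3, tested as an interaction in limma, was called higher for 25 of 29 members and lower for 0 (0 also at an unadjusted p under 0.05), beside 5.68% and 2.94% of all tested genes. Its median was 1.95 over the members and 0.095 over all tested genes, and the 4 members not called were Tm7sf2, Srebf1, Scap and Insig2. Each genotype has 1 replicate 1 library, so the test takes its spread from replicates 2 and 3 and assumes that the replicate 1 libraries vary as those do. With no filter on low FPKM, 3 of 29 members were called higher, beside 27 of 18112 genes, while 25 had an unadjusted p under 0.05 with or without the filter. With chromosome medians removed 22 members were called higher and 0 lower. That scaling changed the split over all tested genes from 714 higher and 369 lower to 429 and 393.

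**Figure D2:**
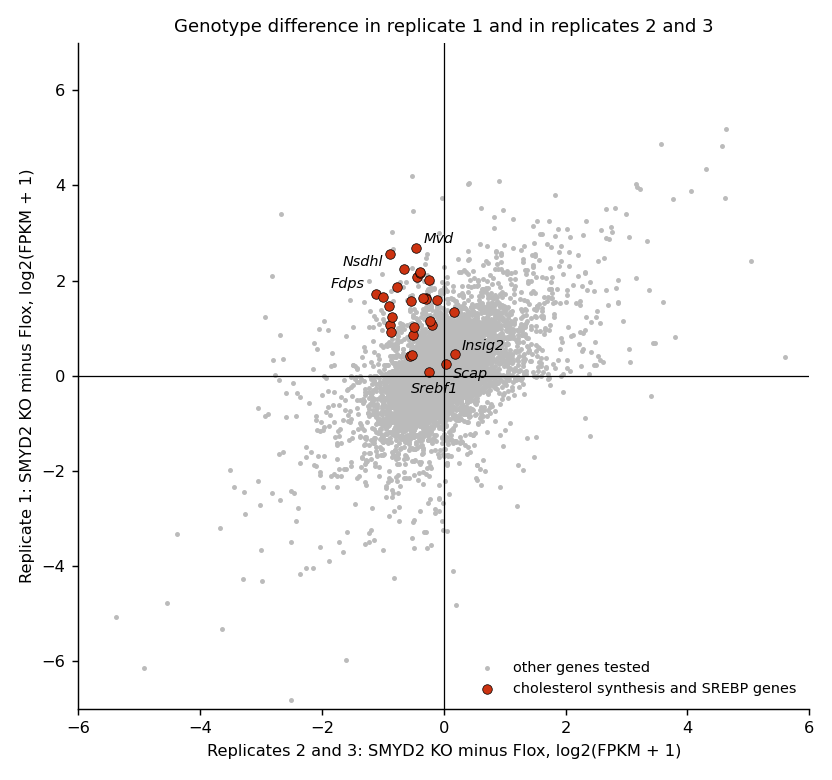
SMYD2 KO minus Flox in log2(FPKM + 1) within the replicate 1 pair (vertical) against the mean of the replicate 2 and 3 pairs (horizontal), with 1 point for each of 12565 tested genes and the 29 members in red. All 29 members sit above 0 on the vertical axis, beside 54.4% of all tested genes. On the horizontal axis 26 of 29 lie left of 0, beside 56.9% of all tested genes.

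With replicates 2 and 3 alone, 15 of 29 members fell in SMYD2 KO and 0 rose (0 also at an unadjusted p under 0.05), beside 17.2% and 11.9% of all tested genes. The members' median log2 fold change there was -0.46, beside -0.06 over all tested genes, and 26 of 29 were below 0. Of these 4 libraries, leaving out Flox replicate 2 left 9 members called lower (799 of 12565 tested genes), leaving out Flox replicate 3 left 8 (1223 genes), leaving out SMYD2 KO replicate 2 gave 18 (1747 genes) and leaving out SMYD2 KO replicate 3 left 9 (1575 genes). With no filter on low FPKM the count was 7, beside 981 of 18112 genes. With all 3 Flox libraries and SMYD2 KO replicates 2 and 3, so that SMYD2 KO replicate 1 alone was left out, 5 members fell, Fdps, Hmgcs1, Idi1, Dhcr7 and Elovl6, and 0 rose (0 also at an unadjusted p under 0.05), beside 2.49% and 2.97% of tested genes. A rescaling of each library to TPM moved the median over all tested genes in the comparison of all 6 libraries from -0.02 to 0.095 and changed the split of its calls from 152 lower and 154 higher to 99 and 247. In replicates 2 and 3 alone the same rescaling changed that split from 2156 lower and 1494 higher to 1324 and 2123, while 11 of 29 members were called lower and 0 higher by limma (1 higher at an unadjusted p under 0.05), and 25 of 29 were below 0.

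Since most of the members, though not all, were called higher in the interaction, the members' promoters were searched for 3 motifs that are known near SREBP target genes. RefSeq windows of 300 bases (250 before and 50 after a start site, GRCm38.p6) were found for 23 of 29 members, 31 windows in all. The NF-Y box CCAAT, searched on both strands, was in 20 of 31 member windows, 64.5%, and in 37.4% of all 32851 windows, or 38.0% of the windows of tested genes. The GC box GGGCGG was in 74.2% of member windows, 35.7% of all windows and 63.0% of those of tested genes. The sterol regulatory element TCACNCCAC was in 1 member window, that of Hmgcs1 at -137 from the start site on the plus strand, and in 1.24% of all windows. A match is a description and not a shown binding site, and a window without one lacks only these exact letters. The 3 member windows with the most NF-Y boxes are shown, picked for that number and not for their interaction calls. They are Hmgcs1 at chr13:119690101-119690400 (plus strand), Mvk at chr5:114444019-114444318 (plus strand) and Nsdhl at chrX:72918271-72918570 (plus strand). Capitals mark the NF-Y boxes, which read ATTGG where they lie on the other strand, and in Hmgcs1 also the sterol regulatory element TCACCCCAC, which overlaps none of them.
Hmgcs1: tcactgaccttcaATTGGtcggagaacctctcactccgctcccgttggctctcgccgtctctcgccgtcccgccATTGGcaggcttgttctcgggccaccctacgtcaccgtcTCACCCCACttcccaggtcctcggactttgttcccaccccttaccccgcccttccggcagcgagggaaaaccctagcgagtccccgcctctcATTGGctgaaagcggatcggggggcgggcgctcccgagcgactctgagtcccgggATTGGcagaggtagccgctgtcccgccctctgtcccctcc
Mvk: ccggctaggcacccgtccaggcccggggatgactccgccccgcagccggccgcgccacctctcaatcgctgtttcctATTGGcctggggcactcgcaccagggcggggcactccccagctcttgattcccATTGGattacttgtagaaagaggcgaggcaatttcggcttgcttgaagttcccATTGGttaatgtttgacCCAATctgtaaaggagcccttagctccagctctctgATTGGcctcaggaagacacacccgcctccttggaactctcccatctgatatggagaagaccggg
Nsdhl: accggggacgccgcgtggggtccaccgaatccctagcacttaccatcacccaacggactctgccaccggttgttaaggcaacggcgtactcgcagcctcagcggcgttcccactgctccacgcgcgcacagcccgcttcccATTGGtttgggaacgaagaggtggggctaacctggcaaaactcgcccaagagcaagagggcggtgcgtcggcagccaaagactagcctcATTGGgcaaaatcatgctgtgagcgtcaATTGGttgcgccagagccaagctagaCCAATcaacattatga
Mvk held 5 NF-Y boxes, and Hmgcs1 and Nsdhl held 4 each. The boxes did not sort the members by their interaction calls: the windows of Acat2, Acaca and Elovl6, which were called, and of Scap, which was not, held none, while 1 or more windows of Insig2, Srebf1 and Tm7sf2, which were not called, held some.

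The groups by role hold the listed members only, not every enzyme of each step, so their sums are not whole-pathway levels. For every role below, counts stand beside 5.68% of all tested genes called higher in the interaction. Counts that fell in replicates 2 and 3 alone stand beside 17.2%. The 7 members of the mevalonate steps, which turn acetyl-CoA into farnesyl diphosphate, had a summed level of 232, 187 and 193 FPKM in Flox replicates 1, 2 and 3, and of 790, 115 and 94.1 in SMYD2 KO replicates 1, 2 and 3. All 7 genes were called higher in the replicate 1 pair than in replicates 2 and 3, and 5 of 7, Acat2, Hmgcs1, Mvd, Idi1 and Fdps, fell in replicates 2 and 3 alone. Fdps, which makes farnesyl diphosphate and was the most abundant of the group, had 79.6, 63.9 and 61.9 FPKM in Flox and 264, 32.9 and 24.8 in SMYD2 KO. The first SMYD2 KO library was thus well above, and the other 2 well below, a tight Flox group. Its log2 fold change was -0.17 ± 0.84 (SE, adjusted p 0.942) over all 6 libraries, -1.22 ± 0.18 (SE, adjusted p 0.0275) without SMYD2 KO replicate 1 and -1.11 ± 0.14 (SE, adjusted p 0.00135) in replicates 2 and 3 alone, and the interaction was 2.83 ± 0.24 (SE, adjusted p 0.00122).

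Hmgcs1, the synthase that condenses acetoacetyl-CoA with acetyl-CoA and whose promoter is shown above, had 53.2, 48.2 and 53.2 FPKM in Flox and 126, 30.3 and 25.1 in SMYD2 KO. The Flox values nearly coincided, with a mean of 51.5 ± 2.89 FPKM (SD, n = 3), and no SMYD2 KO library overlapped them. Mvd, the decarboxylase that yields isopentenyl diphosphate, had 13.1, 11.1 and 11.7 FPKM in Flox and 90.1, 8.99 and 7.12 in SMYD2 KO. Replicate 1 of SMYD2 KO was 6.88 times its Flox partner, the highest such ratio among members without a library listed at 0, and the interaction of 3.15 ± 0.22 (SE, adjusted p 0.000708) was the highest of those called. Idi1, the isomerase that follows, had 29.4, 20.9 and 24.4 FPKM in Flox and 82.8, 13.0 and 10.3 in SMYD2 KO. Acat2, which supplies acetoacetyl-CoA, had 37.2, 22.1 and 23.5 FPKM in Flox and 138, 13.5 and 12.3 in SMYD2 KO. Both repeated the order of Fdps, with the SMYD2 KO group on either side of Flox.

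The kinases of the pathway shared the excess in SMYD2 KO replicate 1 but not the calls in replicates 2 and 3. Mvk, mevalonate kinase, had 11.0, 14.2 and 12.03 FPKM in Flox and 47.5, 11.8 and 10.0 in SMYD2 KO, so that apart from SMYD2 KO replicate 1 the groups overlapped. Pmvk, phosphomevalonate kinase, had 8.43, 6.66 and 5.90 FPKM in Flox and 41.8, 4.67 and 4.46 in SMYD2 KO, with the last 2 libraries below all of Flox. Neither was called in replicates 2 and 3 alone (log2 fold changes -0.245 and -0.39, adjusted p 0.194 and 0.0517). Acat2 and Idi1 have close paralogs with which reads may be shared, so their levels are uncertain to that extent.

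The 3 members of the squalene and lanosterol steps had summed levels of 128, 106 and 113 FPKM in Flox and 298, 98.4 and 81.2 in SMYD2 KO. All 3 genes were called higher in the interaction, and Fdft1 and Lss fell in replicates 2 and 3 alone (log2 fold changes -0.525 and -0.49, adjusted p 0.0111 and 0.0292). Fdft1, squalene synthase, had 46.5, 36.3 and 37.3 FPKM in Flox and 62.9, 27.3 and 23.4 in SMYD2 KO. It was the enzyme with the smallest excess in SMYD2 KO replicate 1, at 1.35 times Flox replicate 1 and with an interaction of 0.95 ± 0.19 (SE, adjusted p 0.0231). Sqle, the monooxygenase that oxidises squalene, had 66.8, 59.4 and 62.7 FPKM in Flox and 203, 62.7 and 50.5 in SMYD2 KO. Here SMYD2 KO replicate 2 lay within the Flox range, and the difference in replicates 2 and 3 alone was not called (log2 fold change -0.115, adjusted p 0.530). Lss, which closes squalene epoxide to lanosterol, had 15, 10.3 and 12.6 FPKM in Flox and 31.4, 8.37 and 7.26 in SMYD2 KO.

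The 8 members that act between lanosterol and cholesterol had a summed level of 253, 220 and 240 FPKM in Flox and 873, 196 and 159 in SMYD2 KO. In the replicate 1 pair all 8 were at least 2-fold higher in SMYD2 KO, 7 of 8 were called higher in the interaction, and 4 of 8, Cyp51, Nsdhl, Ebp and Dhcr7, fell in replicates 2 and 3 alone. Nsdhl, the dehydrogenase that removes the methyl groups at carbon 4 and whose promoter is shown above, had 39.4, 31.0 and 37.4 FPKM in Flox and 192, 22.6 and 19.98 in SMYD2 KO. Dhcr7, the reductase that makes cholesterol from 7-dehydrocholesterol, had 18.1, 14.7 and 16.4 FPKM in Flox and 58.9, 7.57 and 6.88 in SMYD2 KO. In both, Flox was compact and the 3 SMYD2 KO libraries lay outside it on opposite sides. For Dhcr7 the log2 fold change was -0.12 ± 0.76 (SE, adjusted p 0.953) over all 6 libraries, -1.08 ± 0.14 (SE, adjusted p 0.0210) without SMYD2 KO replicate 1 and -1.01 ± 0.11 (SE, adjusted p 0.000882) in replicates 2 and 3 alone.

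Msmo1, the methyl sterol oxidase, was the most abundant of these genes at 81.5, 64.6 and 68.7 FPKM in Flox and 253, 60.2 and 48.5 in SMYD2 KO. Cyp51, the lanosterol demethylase, had 31.3, 30.5 and 32.0 FPKM in Flox and 94.8, 25.1 and 17.7 in SMYD2 KO. SMYD2 KO replicate 1 was about 3 times Flox replicate 1 for both, with ratios of 3.10 and 3.03. Hsd17b7, which reduces the ketone left by demethylation, had 10.2, 6.07 and 7.86 FPKM in Flox and 33.7, 5.70 and 4.83 in SMYD2 KO. Ebp, the sterol isomerase, had 26.2, 39.8 and 40.7 FPKM in Flox and 113, 29.8 and 29.2 in SMYD2 KO, so that Flox replicate 1 was the lowest of the 6. Ebp thereby fell in replicates 2 and 3 alone (log2 fold change -0.44, adjusted p 0.0126) but not when only SMYD2 KO replicate 1 was left out (-0.24, adjusted p 0.530).

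Sc5d and Tm7sf2 departed from the rest. Sc5d, the desaturase before the last reduction, had 44.8, 30.7 and 34.3 FPKM in Flox and 116, 42.5 and 31.8 in SMYD2 KO, and it was the only enzyme gene among the members whose log2 fold change was above 0 in replicates 2 and 3 alone on the log2(FPKM + 1) scale, at 0.175 (adjusted p 0.409). Tm7sf2, a sterol reductase, was the least abundant member, with 1.14, 2.77 and 2.09 FPKM in Flox and 11.7 and 2.43 in SMYD2 KO replicates 1 and 2, and it was listed at 0 in SMYD2 KO replicate 3. That library listed 4 genes at 0 that had at least 1 FPKM in each of the other 5 libraries, so the entry may be a failed estimate. The interaction for Tm7sf2, 3.45 ± 1.22 (SE, adjusted p 0.212), was not called.

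The regulators had interactions from 0.21 for Scap to 1.35 for Insig1, which overlapped those of the enzymes at their lower end. Srebf2, which encodes SREBP-2, had 62.3, 65.6 and 76.1 FPKM in Flox and 82.8, 50.02 and 45.2 in SMYD2 KO. It followed the enzymes' order, with SMYD2 KO replicate 1 the highest and the other SMYD2 KO libraries below Flox, over a much narrower range. It fell in replicates 2 and 3 alone (log2 fold change -0.56 ± 0.12 SE, adjusted p 0.0108), and its interaction of 0.97 ± 0.20 (SE, adjusted p 0.0270) compared with a median of 1.95 over the members. Insig1, itself an SREBP target whose protein retains SCAP, had 29.1, 36.9 and 37.7 FPKM in Flox and 53.3, 28.6 and 23.6 in SMYD2 KO. It was likewise lower in replicates 2 and 3 alone (-0.50, adjusted p 0.0160) and was called in the interaction (1.35, adjusted p 0.00786).

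Srebf1, Scap and Insig2 showed no such split. Srebf1, which encodes SREBP-1, had 23.9, 31.6 and 30.3 FPKM in Flox and 25.4, 26.8 and 25.2 in SMYD2 KO. Its SMYD2 KO values lay within 2 FPKM of each other and inside the Flox range. Scap had 35.4, 42.8 and 42.0 FPKM in Flox and 42.1, 40.5 and 46.6 in SMYD2 KO, with overlapping groups. Insig2 had 14.4, 16.2 and 14.9 FPKM in Flox and 20.1, 17.0 and 18.4 in SMYD2 KO. It was the only member with all 3 SMYD2 KO libraries above every Flox library, at a log2 fold change of 0.27 ± 0.13 (SE, adjusted p 0.290), and its interaction was 0.27 (adjusted p 0.392). A p above the threshold does not show that these levels were equal.

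**Figure D3:**
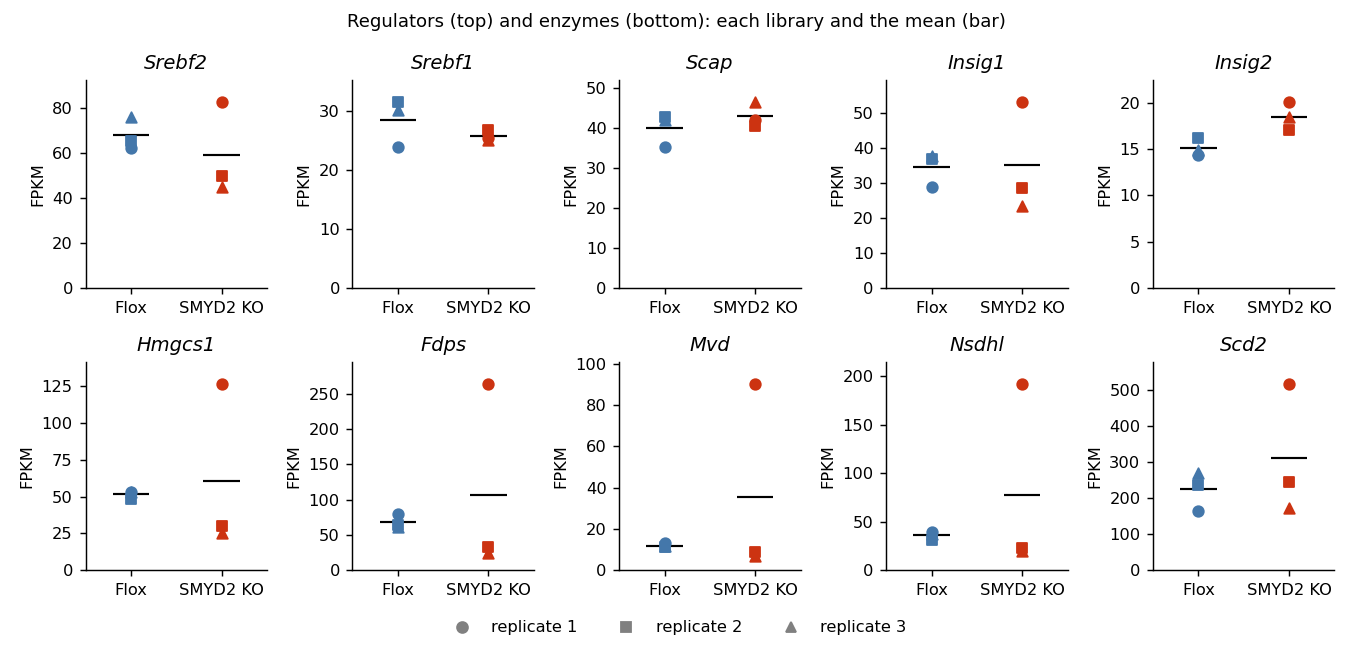
FPKM of 5 regulators (top) and 5 enzyme genes (bottom) in each library, with the marker shape giving the replicate number and the bar the group mean. Srebf1, Scap and Insig2 keep the SMYD2 KO libraries together, whereas Hmgcs1, Fdps, Mvd and Nsdhl have SMYD2 KO replicate 1 far above, and replicates 2 and 3 below, the Flox libraries.

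Stard4, a carrier that moves sterol between membranes and is itself under SREBP-2 control, had 12.3, 10.7 and 12.8 FPKM in Flox and 58.6, 9.94 and 7.63 in SMYD2 KO. It followed the sterol enzymes rather than the regulators, at 4.78 times Flox in the replicate 1 pair and with an interaction of 2.55 ± 0.25 (SE, adjusted p 0.00179). In replicates 2 and 3 alone its log2 fold change of -0.39 was not called (adjusted p 0.0899).

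Fatty acid synthesis and desaturation genes had summed levels of 316, 389 and 446 FPKM in Flox and 836, 355 and 273 in SMYD2 KO. All 5 were called higher in the interaction, with values from 1.25 for Fasn to 1.95 for Scd1, and Scd1 and Elovl6 fell in replicates 2 and 3 alone. Scd2, a stearoyl-CoA desaturase and the most abundant member, had 166, 237 and 271 FPKM in Flox and 516, 245 and 173 in SMYD2 KO. Scd1 had 73.1, 99.1 and 112 FPKM in Flox and 155, 60.6 and 53.5 in SMYD2 KO. In both genes Flox replicate 1 was the lowest Flox library while SMYD2 KO replicate 1 was the highest of all, and because they are close paralogs on the same chromosome the split of reads between them is uncertain. Scd1 had a log2 fold change of -0.88 ± 0.12 (SE, adjusted p 0.00182) in replicates 2 and 3 alone, while that of Scd2, -0.30 (adjusted p 0.246), was not called.

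Fasn, fatty acid synthase, had 49.3, 27.8 and 33.5 FPKM in Flox and 104, 27.8 and 25.6 in SMYD2 KO. Acaca, the carboxylase that makes malonyl-CoA, had 18.7, 19.1 and 21.7 FPKM in Flox and 42.6, 17.2 and 17.2 in SMYD2 KO. For these genes SMYD2 KO replicates 2 and 3 were close to Flox, with log2 fold changes of -0.19 and -0.23 in replicates 2 and 3 alone (adjusted p 0.277 and 0.147). Elovl6, which lengthens palmitate, had 9.35, 6.75 and 8.01 FPKM in Flox and 18.5, 3.83 and 3.31 in SMYD2 KO, and fell both in replicates 2 and 3 alone (-0.87, adjusted p 0.00357) and with only SMYD2 KO replicate 1 left out (-0.98, adjusted p 0.0419).

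**Figure D4:**
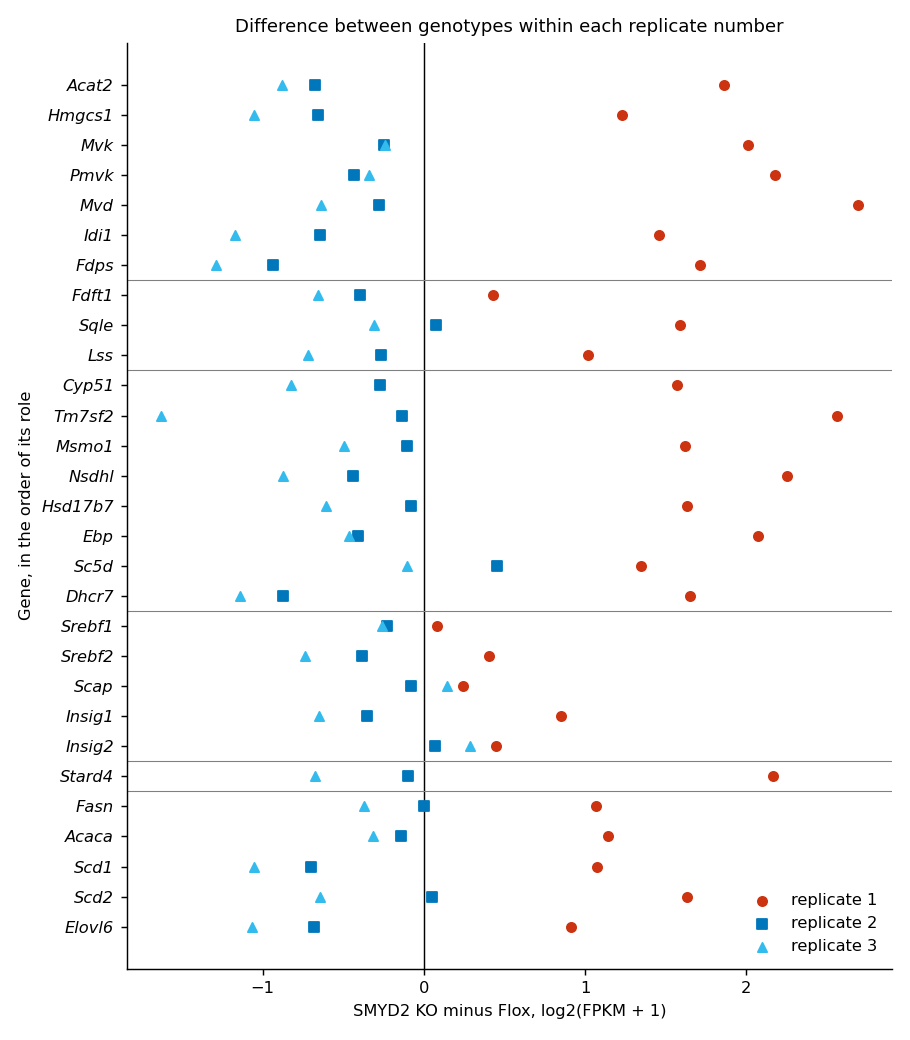
SMYD2 KO minus Flox in log2(FPKM + 1) within each replicate number for the 29 members, in the order of their roles. The replicate 1 difference is above 0 for all 29, while 24 of 29 are below 0 in replicate 2 and 27 of 29 in replicate 3.

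Genes outside the members were read from lists by role. Of 14 other SREBP targets of lipid synthesis, 0 were called lower or higher over all 6 libraries, with or without the block (0 also at an unadjusted p under 0.05 in limma), but 9 were called higher in the interaction, beside 5.68% of all tested genes, and 6 fell in replicates 2 and 3 alone, beside 17.2%. With only SMYD2 KO replicate 1 left out the 6 became 0, although 4 of the 14 had an unadjusted p under 0.05. Their summed level was 616, 557 and 591 FPKM in Flox and 1245, 423 and 387 in SMYD2 KO. Acss2, which makes acetyl-CoA from acetate, was picked out once its values were known. It had 12.1, 6.01 and 6.16 FPKM in Flox and 51.0, 4.05 and 4.43 in SMYD2 KO. SMYD2 KO replicate 1 was thus above, and SMYD2 KO replicates 2 and 3 below, every Flox library. Of the 7 proteins that cleave SREBP or degrade sterol-regulated proteins, 0 were called by limma over all 6 libraries, with 2 at an unadjusted p under 0.05, and 0 with the block, with 3 at that level. Mbtps1, the site-1 protease, was the 1 gene called higher in the interaction (0.68, adjusted p 0.0470), beside 5.68% of all tested genes. It had 23.3, 42.55 and 42.4 FPKM in Flox and 45.85, 49.5 and 52.9 in SMYD2 KO. Flox replicate 1 was thus the lowest library, and SMYD2 KO replicate 1 was the lowest of its group. Erlin2, also named for its value, was the 1 gene of the 7 called in replicates 2 and 3 alone. It was called higher (0.35, adjusted p 0.0349, and 0.174 with only SMYD2 KO replicate 1 left out), beside 11.9% of all tested genes. The summed level of the list stayed between 148 and 187 FPKM.

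LXR, the oxysterol receptor, promotes cholesterol export, and of 10 genes of the receptor, its targets and sterol-handling enzymes 9 passed the filter. Among them limma called 0 over all 6 libraries, with 3 at an unadjusted p under 0.05. With the replicate block Abca1 rose and Nr1h3 and Smpdl3a fell, beside 4.72% of all tested genes higher and 5.72% lower. In replicates 2 and 3 alone 1 gene of the list rose and 3 fell, beside 11.9% and 17.2%. With only SMYD2 KO replicate 1 left out 1 rose and 0 fell. Abca1, the exporter of cellular cholesterol, had 2.46, 7.60 and 8.03 FPKM in Flox and 11.0, 32.3 and 37.7 in SMYD2 KO. Unlike the enzyme genes among the members, it was higher in SMYD2 KO in all 3 pairs. Its log2 fold change was 1.95, with an adjusted p in limma of 0.123 without the block and 0.00427 with it. Its interaction of -0.23 was not called (adjusted p 0.532). Nr1h3, which encodes LXR alpha, had 10.5, 7.72 and 6.89 FPKM in Flox and 5.88, 2.93 and 4.07 in SMYD2 KO, with an adjusted p of 0.136 without the block and 0.0384 with it. Smpdl3a had 1.07, 2.11 and 2.07 FPKM in Flox and 0.20, 0.86 and 0.85 in SMYD2 KO, with an adjusted p of 0.188 and 0.0407. In the interaction 1 gene of the list was called higher, beside 5.68% of all tested genes. It was Lpcat3, which remodels phospholipids (1.74, adjusted p 0.00174), named like Mbtps1 for its value.

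**Figure D5:**
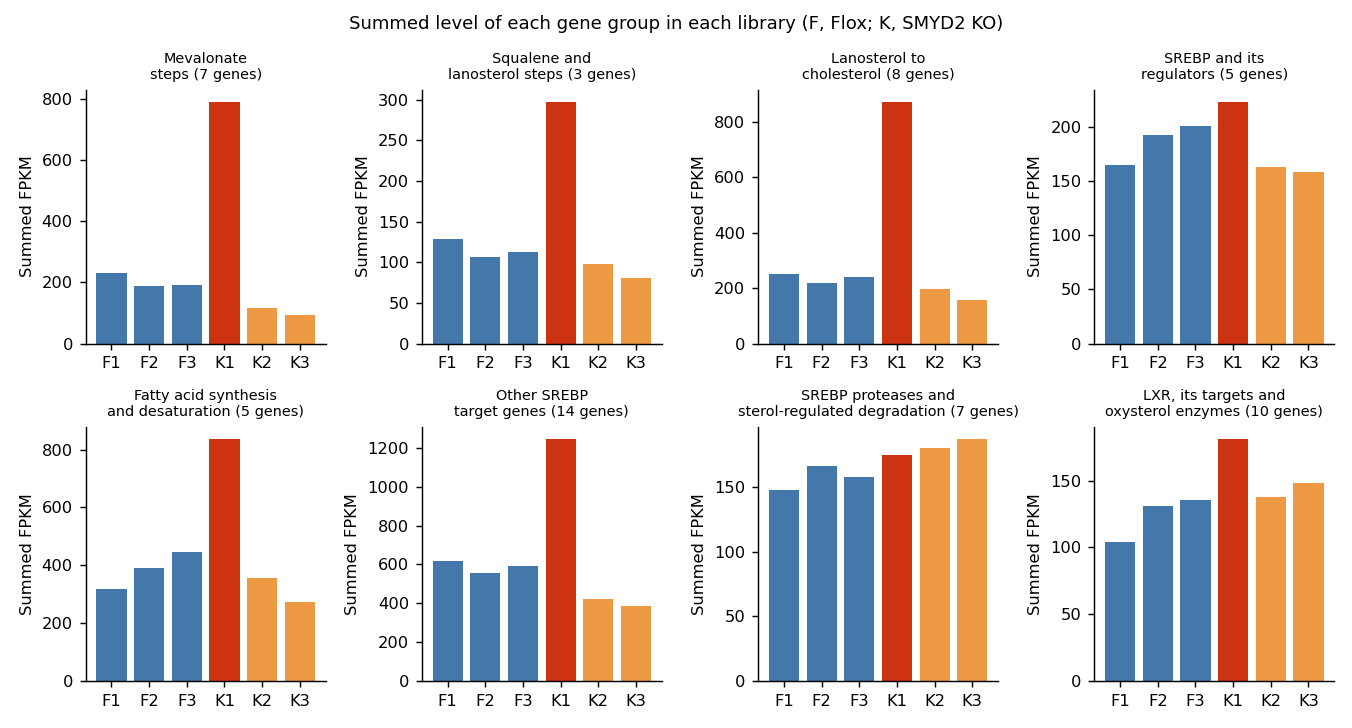
Summed FPKM of the genes of each role in each library, for 5 groups of members and 3 lists of other genes, with Flox in blue, SMYD2 KO replicate 1 in red and SMYD2 KO replicates 2 and 3 in orange. The synthesis groups and the other SREBP targets peak in SMYD2 KO replicate 1, and the proteases stay between 148 and 187 FPKM.

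Markers of other cells were read beside the excess of synthesis genes in SMYD2 KO replicate 1. Of 9 adipocyte genes, 7 were in the table, and their summed level was 23.3, 27.2 and 25.0 FPKM in Flox and 139, 12.5 and 15.2 in SMYD2 KO. Most of the excess in the sum of SMYD2 KO replicate 1 came from Fabp4, the most abundant, at 119 FPKM against 3.12 to 6.19 elsewhere, and without it the sum in that library was 19.99. The defining genes Adipoq, Plin1 and Cidec were listed at 0 in SMYD2 KO replicate 1 and did not exceed 0.09 FPKM in any library. Of the 4 adipocyte genes tested, 3 were called higher in the interaction and 0 lower, beside 5.68% and 2.94% of all tested genes. The 3 were Fabp4 (3.64, adjusted p 0.00142), Plin4 (2.40, adjusted p 0.00717) and Pparg (1.31, adjusted p 0.0177). Pparg had 4.5, 8.0 and 6.87 FPKM in Flox and 3.84, 2.11 and 1.88 in SMYD2 KO. It was thus below Flox in all 3 pairs, with log2 differences of -0.18, -1.53 and -1.45 in replicates 1, 2 and 3. In replicates 2 and 3 alone 3, Plin4, Pparg and Lipe, fell, beside 17.2% of all tested genes. With only SMYD2 KO replicate 1 left out Pparg alone was called lower (adjusted p 0.0465), and Plin4 and Lipe were not (adjusted p 0.258 and 0.0601). Plin4 had 3.92, 8.52 and 9.90 FPKM in Flox and 10.7, 2.77 and 4.58 in SMYD2 KO, and it and Pparg are named for their values. Lipe was lower in SMYD2 KO with the block (adjusted p 0.0418, and 0.231 without it). Fibroblast and adventitial genes had a summed level of 307, 943 and 811 FPKM in Flox and 146, 731 and 712 in SMYD2 KO, lowest in the replicate 1 library of each genotype. Dcn, their most abundant gene, had 13.9 and 25.6 FPKM in Flox and SMYD2 KO replicate 1 against 257 to 383 elsewhere, and Dpt fell over all 6 libraries (log2 fold change -5.28, adjusted p 0.00417). With the block Ly6a and Cd34 also fell and Col14a1 rose (adjusted p 0.0404, 0.0269 and 0.00320, against 0.552, 0.0669 and 0.0683 without it). Dividing-cell genes summed to 179, 120 and 134 FPKM in Flox and 123, 114 and 65.5 in SMYD2 KO. The library with the highest sterol enzyme levels was thus within the Flox range. All 8 of these genes were below Flox in the replicate 1 pair (median log2 difference -0.516) and over all 6 libraries (median log2 fold change -0.501). Cdk1 alone among them was called lower with the block (adjusted p 0.0488, and 0.186 without it), and Top2a was the most abundant at 34.3 FPKM or less. Endothelial genes summed to at most 5.41 FPKM, with Kdr the most abundant and 6 of 8 under 0.5 FPKM in every library. Macrophage genes summed to 18.4 to 42.6 FPKM, mostly Cd14 at 10.6 to 37.7, with 4 of 8 under 0.5 FPKM in every library. In replicates 2 and 3 alone 5 of the 8 fibroblast genes fell and 2, Lum and Col14a1, rose, beside 17.2% and 11.9% of all tested genes, and of the endothelial, macrophage and dividing-cell lists Kdr and Csf1r rose and Lyz2 fell. In the interaction Pdgfra and Ly6a were called higher and Lum and Cd34 lower, beside 5.68% and 2.94% of all tested genes (the genes of these 2 sentences being named for their values). There 0 endothelial, macrophage or dividing-cell genes were called by limma, with 1, 1 and 0 at an unadjusted p under 0.05. Within the replicate 1 pair itself Pdgfra, Ly6a and Cd34 were below Flox, with log2 differences of -0.57, -0.52 and -4.04. Lum, at 0.26 FPKM or less in that pair, was above it (0.33). By the study's methods, surrounding adipose tissue and the adventitial layer were removed before culture. Each batch of isolated cells was checked for purity by staining for smooth muscle actin. The part of adipocyte, fibroblast, smooth muscle and dividing cells in the members' levels was not tested.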

How the data were processed

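RNA-seq had been run on 3 Flox and 3 SMYD2 KO cultures. The authors filtered reads, mapped them with HISAT and Bowtie2, estimated gene levels with RSEM and deposited FPKM values to 2 decimals; versions and genome build are not given in the sources used here. FPKM are not counts, so log2(FPKM + 1) values of the 12565 genes averaging 0.5 FPKM or more were fitted with limma 3.58.1 in R 4.3.3 (trend and robust), with Benjamini-Hochberg adjustment over all tested genes and calls at an adjusted p under 0.05. Replicate numbers paired the samples: deviations from the group means correlated within each number across genes (r = 0.615, 0.460 and 0.528), though replicates 2 and 3 crossed as well (0.461 and 0.439), so the numbers set replicate 1 apart and did not tell 2 from 3. A fit with the number as a block was added. Depth was estimated from steps of low values of genes with 1 transcript of known length, of which 65.6% to 71.2% lay within 0.15 of a whole fragment at the best depth (21.6% to 23.8% at the median of the depths tried). All 29 members were named; of other lists, genes called without or with the block, at most 6 a list, and the most abundant marker; further genes are named as defining markers or for their values. Members and lists were chosen with earlier results of these data known. Alternatives comprised a pseudocount of 0.1, no filter, blocks, TPM, quantile and chromosome scaling, plain eBayes, stricter cutoffs and leaving out libraries. Promoters came from RefSeq.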

Additional observations from a re-analysis of the deposited data

Results flagged for a closer look

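For 25 of 29 members the difference between SMYD2 KO and Flox in the replicate 1 pair differed from that in replicates 2 and 3, by the limma interaction at an adjusted p under 0.05 over 12565 genes. The interaction on the log2(FPKM + 1) scale, the replicate 1 difference minus the difference in replicates 2 and 3, was, by gene, Mvd 3.15, Nsdhl 2.91, Fdps 2.83, Dhcr7 2.66, Acat2 2.64, Pmvk 2.57, Stard4 2.55, Ebp 2.51, Idi1 2.37. It was Mvk 2.26, Cyp51 2.12, Hmgcs1 2.08, Hsd17b7 1.97, Scd1 1.95, Scd2 1.93, Msmo1 1.92, Elovl6 1.79, Sqle 1.71. The lowest values were Lss 1.51, Acaca 1.37, Insig1 1.35, Fasn 1.25, Sc5d 1.17, Srebf2 0.97 and Fdft1 0.95. With no filter on low FPKM 3 of 29 were called, beside 27 of 18112 genes. All of the values rest on 1 library of each genotype for replicate 1, and the cause was not tested.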

How the results depend on the processing

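The counts of 0 members called lower and 0 higher over all 6 libraries held with a pseudocount of 0.1, no filter, the replicate block, a block for replicate 1 against the others, TPM, quantile scaling, chromosome medians removed, plain eBayes, and a fold change above 2 with an adjusted p under 0.01. They did not hold with replicates 2 and 3 alone, where 15 members were called lower. Leaving out 1 library at a time gave 0 to 5 members called lower (5 without SMYD2 KO replicate 1) and 0 higher. The interaction count of 25 became 3 with no filter and 21 to 26 when 1 library of replicates 2 or 3 was left out. All of its alternatives apart from the pseudocount, these included, were chosen after seeing the data, as were all for replicates 2 and 3 alone. There the count of 15 became 7 with no filter and 8 to 18 when 1 library was left out; 1 sample of a group then stands alone and is assumed to vary like the others. For Smyd2, at -1.48, adjusted p became 0.0189 with the replicate block, 0.00328 with the block for replicate 1 (both -1.48) and 0.00126 in replicates 2 and 3 (-1.35), and the fold change ranged from -1.73 to -1.10 when 1 library was left out and reached -2.21 with a pseudocount of 0.1 and -1.77 with TPM. The replicate block changed no call among the members.

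None of the members' own log2 fold changes over all 6 libraries was called, and many changed sign. In replicates 2 and 3 alone 16 reversed to negative: Acat2 -0.78, Mvk -0.245, Pmvk -0.39, Mvd -0.46, Sqle -0.115, Lss -0.49, Cyp51 -0.55, Tm7sf2 -0.88, Msmo1 -0.30, Nsdhl -0.66, Hsd17b7 -0.34, Ebp -0.44, Stard4 -0.39, Fasn -0.19, Acaca -0.23 and Scd2 -0.30. With chromosome medians removed Idi1 was 0.035, Cyp51 -0.11, Scap -0.022 and Scd1 0.19. With a pseudocount of 0.1 Lss was -0.007 and Tm7sf2 -0.46. Insig1 was 0.068 after rescaling to TPM and 0.004 after quantile scaling. Leaving out 1 library at a time, the values that changed sign ranged, by gene, over Acat2 -1.004 to 0.69, Hmgcs1 -0.88 to 0.265, Mvk -0.17 to 0.90, Pmvk -0.51 to 0.97, Mvd -0.52 to 1.22, Idi1 -1.03 to 0.42, Fdps -1.22 to 0.46, Fdft1 -0.635 to 0.061, Sqle -0.16 to 0.84, Lss -0.62 to 0.37, Cyp51 -0.55 to 0.63, Tm7sf2 -0.66 to 1.17, Msmo1 -0.39 to 0.79, Nsdhl -0.725 to 0.87, Hsd17b7 -0.51 to 0.78, Ebp -0.24 to 0.725, Dhcr7 -1.08 to 0.39, Insig1 -0.39 to 0.18, Stard4 -0.41 to 0.99, Fasn -0.41 to 0.58, Acaca -0.19 to 0.44, Scd1 -0.70 to 0.055, Scd2 -0.094 to 0.69 and Elovl6 -0.98 to 0.11. Apart from the smaller number of samples in these fits, the cause was not tested. The interaction could not be fitted without a replicate 1 library.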
